A study of Ovis aries with 2 samples.

Results

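Oxidative phosphorylation is carried out by 5 protein complexes of the inner mitochondrial membrane. Complexes I (NADH dehydrogenase), III (cytochrome c reductase) and IV (cytochrome c oxidase) pump protons while electrons pass from NADH to oxygen, complex II (succinate dehydrogenase) feeds in electrons from the citrate cycle without pumping, and complex V (ATP synthase) makes ATP from the proton gradient. Most subunits are encoded in the nucleus, and a small set, the genes whose symbols start with MT-, is encoded in mitochondrial DNA, so complexes I, III, IV and V are built from both genomes. The members described here were all features whose symbol starts with NDUFA, NDUFB, NDUFC, NDUFS, NDUFV, UQCR, COX4, COX5, COX6, COX7, COX8 or ATP5, or is SDHA, SDHB, SDHC or SDHD. They were 73 of 26478 features and carried 69 symbols, because NDUFB3, ATP5MC2 and ATP5MD each stand for several features.

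The data were counts of unique molecular identifiers (UMIs, 1 for each captured RNA molecule) in single cells of sheep embryos at embryonic day 16. One breed, Hulunbuir Short-tail, has a short tail, and the other, Ujumqin, served as the control. Embryos of a breed were pooled into a single library, so 1 library stood for each breed, no comparison had a replicate and no p-value could be given. All intervals are 95% intervals of counting error only. The Ujumqin library held 212933364 UMIs in 17059 barcodes and the Hulunbuir library 131385353 UMIs in 10709 barcodes, of which 14554 and 9583 were kept with at least 200 genes and under 10% MT- UMIs (61 barcode sequences occurred in both libraries).

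Cells were assigned to a type by marker genes, at least 3 of which had to stand above the level of the libraries, and a type was described where it had at least 50 cells. In Ujumqin, 3499 cells were erythroid-like, 359 extraembryonic endoderm-like, 170 endothelium-like, 75 cardiomyocyte-like and 1397 mesenchyme-like. In Hulunbuir, 1305 cells were mesenchyme-like, 797 caudal progenitor-like, 478 endothelium-like, 355 splanchnic mesoderm-like, 188 presomitic mesoderm-like, 114 neural-like, 98 cardiomyocyte-like, 62 somite-like and 51 intermediate mesoderm-like. The gates took in 37.8% of kept Ujumqin cells and 36.0% of kept Hulunbuir cells, and 3 types (mesenchyme-like, endothelium-like and cardiomyocyte-like) were found in both. The study's methods state that tissue outside the embryo was taken off, and the sample protocol in the labels includes lysis of red cells. Cells with markers of both kinds were found in Ujumqin. The libraries differed in depth within a type, with a median of 2937 UMIs per cardiomyocyte-like cell in Ujumqin against 11936.5 in Hulunbuir, and extraembryonic endoderm-like cells were shallow, with a median of 796 UMIs. At least 5000 UMIs were held by 77 of the 359 extraembryonic endoderm-like cells and 29 of the 75 Ujumqin cardiomyocyte-like cells. Such deep cells weigh most where UMIs are summed over the cells of a type.

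The members took 1.78% of the kept UMIs in Ujumqin and 2.37% in Hulunbuir. Complex I had 32 features and 35.9% of the member UMIs, complex V 16 features and 32.6%, complex IV 11 features and 18.0%, and complex III 7 features and 12.1%. A further 6 features were assembly factors of complex I (NDUFAF genes), which help to build the complex without staying in it, and had 1.35% of the member UMIs. Complex II was represented by its membrane anchor SDHC alone, since no feature carried the symbols SDHA, SDHB or SDHD, and SDHC had 575 UMIs in both libraries together, or 0.00847% of the member UMIs. Of the 73 features, 5 had under 20 UMIs in both libraries. The sums therefore describe complexes I, III, IV and V, and only the features that carry a symbol.

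Levels are given as CPM, in which the UMIs of a gene summed over the cells of a type are divided by all UMIs of those cells and multiplied by 1000000. In Ujumqin, the summed level of the members was 13273 CPM in erythroid-like cells, 16913 CPM in extraembryonic endoderm-like cells, 22337 CPM in endothelium-like cells, 22680 CPM in cardiomyocyte-like cells and 23265 CPM in mesenchyme-like cells. In Hulunbuir, it was 19168 CPM in neural-like cells, 21860 CPM in somite-like cells, 21966 CPM in caudal progenitor-like cells, 22907 CPM in cardiomyocyte-like cells, 23429 CPM in mesenchyme-like cells, 23798 CPM in endothelium-like cells, 24140 CPM in presomitic mesoderm-like cells, 24619 CPM in splanchnic mesoderm-like cells and 24916 CPM in intermediate mesoderm-like cells. Erythroid-like, extraembryonic endoderm-like and neural-like cells were thus below all others, and the remaining types lay close together. Counting intervals overlapped between the neighbours somite-like and caudal progenitor-like, splanchnic mesoderm-like and intermediate mesoderm-like, and, in Ujumqin, endothelium-like and cardiomyocyte-like cells.

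The low place of erythroid-like and extraembryonic endoderm-like cells depended on the total used. In erythroid-like cells, 4 features without a symbol took 46.8% of all UMIs, and in extraembryonic endoderm-like cells secreted proteins of yolk sac and liver such as AFP, AHSG, TTR and APOA2 were abundant. When the 12 features that held at least 1% of the UMIs of a type and at least 5 times their mesenchyme-like share were left out of the total, the summed member level became 24950 CPM in erythroid-like cells, 23859 CPM in extraembryonic endoderm-like cells, 23239 CPM in endothelium-like cells, 25238 CPM in cardiomyocyte-like cells and 23720 CPM in mesenchyme-like cells. The highest Ujumqin type was then 1.09-fold above the lowest, compared with 1.75-fold over all UMIs, and erythroid-like cells stood above mesenchyme-like cells instead of below. Neural-like cells, at 19262 CPM, were then the lowest of the 14 combinations of library and type. The 4 features without a symbol took 9.90% of UMIs in cardiomyocyte-like, 2.68% in extraembryonic endoderm-like, 2.00% in endothelium-like and 1.36% in mesenchyme-like cells of Ujumqin, and at most 0.0294% in the Hulunbuir types. Their part in the Ujumqin values was not tested beyond this change of total.

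**Figure D1:**
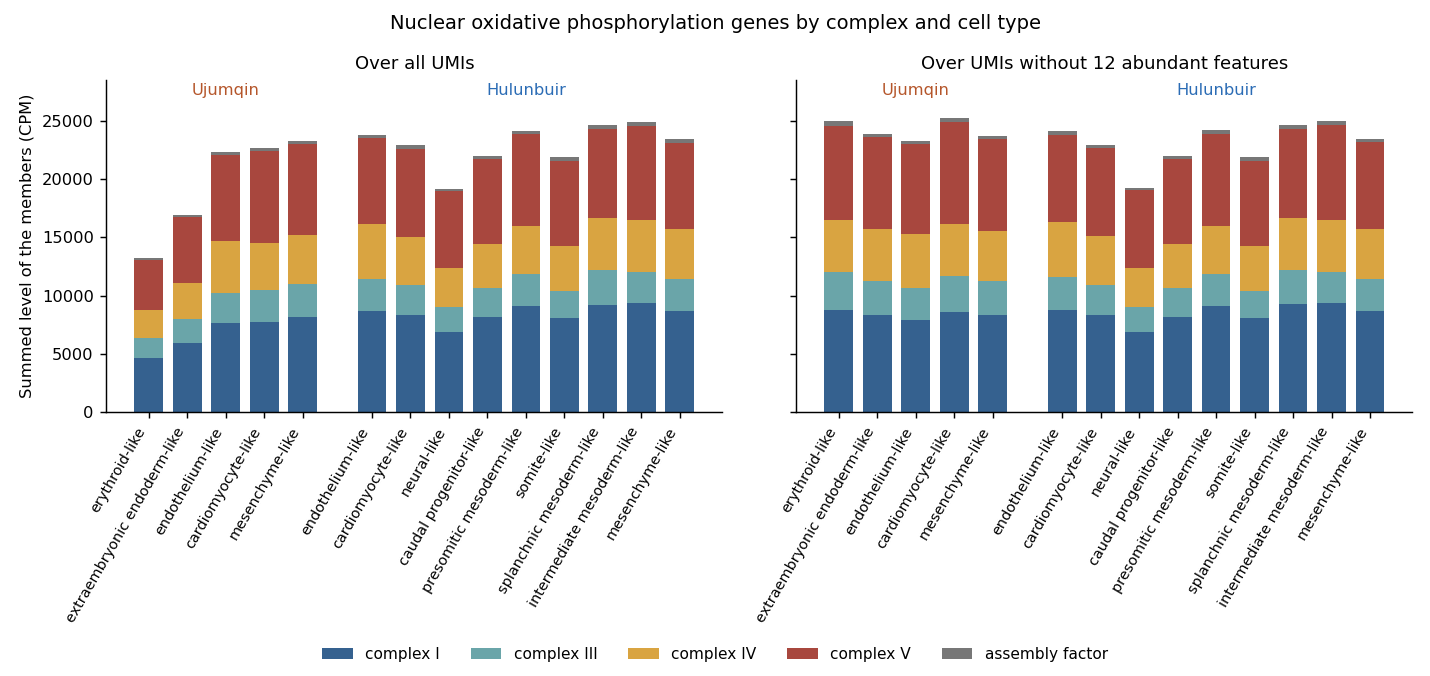
Summed level of the members in CPM for the 14 combinations of library and cell type, stacked by complex, over all UMIs (left) and over UMIs without the 12 abundant features (right). Complex II (SDHC, at most 5.19 CPM) is too low to be seen. Erythroid-like cells stand at 13273 CPM on the left and 24950 CPM on the right, and neural-like cells at 19168 CPM and 19262 CPM.

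The spread between single cells differed among types. Among cells with at least 1000 UMIs, the members took a median of 1.31% of the UMIs of an erythroid-like cell (quartiles 1.18% and 1.44%) and 2.34% of those of a Ujumqin mesenchyme-like cell (2.20% and 2.47%). Without the abundant features the medians were 2.50% and 2.38%. In Hulunbuir, the median was 1.90% in neural-like cells (1.76% and 2.05%) and 2.32% in mesenchyme-like cells (2.12% and 2.51%), so the upper quartile of neural-like cells lay below the lower quartile of mesenchyme-like cells. Ujumqin cardiomyocyte-like cells (median 2.49%, quartiles 2.05% and 3.43%) and extraembryonic endoderm-like cells (1.61%, 1.25% and 2.08%) were spread more widely. These types also had the lowest median UMIs per cell, 2937 and 796, which widens the counting error of a cell. Under 1000 UMIs, 16 of 75 and 216 of 359 cells were left out. How much of the wider spread was counting error was not tested.

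The complexes kept similar proportions to each other. Complex I made up between 34.1% of the member UMIs in Ujumqin endothelium-like cells and 37.9% in presomitic mesoderm-like cells. Complex III ranged from 10.6% in intermediate mesoderm-like to 12.8% in erythroid-like cells. Complex IV ranged from 17.0% in presomitic mesoderm-like to 19.7% in Ujumqin endothelium-like cells. Complex V ranged from 30.9% in splanchnic mesoderm-like to 34.8% in Ujumqin cardiomyocyte-like cells. In level without the abundant features, complex I spanned 1.36-fold between the lowest and the highest of the 14 combinations, complex III 1.46-fold, complex IV 1.41-fold and complex V 1.32-fold. In Hulunbuir, neural-like cells were lowest for each of the 4 complexes. The assembly factors varied somewhat more, from 226 CPM in neural-like cells to 393 CPM in erythroid-like cells on this total, or 1.74-fold.

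The most abundant members were spread over all of these types. ATP5MC3, which encodes the c subunit of the rotor ring of ATP synthase, lay between 797 and 1841 CPM. COX4I1, the regulatory subunit of cytochrome c oxidase common to most tissues, was highest in endothelium-like cells of both libraries, with 1361 CPM (1334 to 1388) in Ujumqin and 1343 CPM (1321 to 1365) in Hulunbuir, against 1118 and 1045 CPM in mesenchyme-like cells. NDUFA4, a subunit of complex IV first assigned to complex I, lay between 679 CPM in erythroid-like cells and 1262 CPM in intermediate mesoderm-like cells. In complex III, UQCR10 was highest in endothelium-like cells as well, at 711 CPM in Ujumqin and 739 CPM in Hulunbuir, while UQCRH, its hinge subunit, was lower there than in caudal progenitor-like cells (600 CPM against 818 CPM in Hulunbuir). In complex I, NDUFS5 ranged from 278 to 583 CPM and the acyl carrier protein NDUFAB1 from 267 to 630 CPM. These ranges are over all UMIs, of which 4 features took 46.8% in erythroid-like cells. The low place of erythroid-like cells in them therefore depends on the total used. These levels can be set beside each other because a 3′ library counts a molecule once whatever its length, though how completely each 3′ end is annotated was not tested.

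Erythroid-like cells were compared with mesenchyme-like cells of the same library, gene by gene, for genes with enough UMIs. Over all UMIs, 22 of 65 members were at least 2-fold lower and 0 were higher (60.8% of all features compared were lower, 4.87% higher and 65.7% either), with a median log2 ratio of -0.85 for the members and -1.27 for all features. Without the abundant features, 2 of 66 members were at least 2-fold lower and 1 was higher (32.7% of all features were lower and 10.3% higher), with medians of 0.03 and -0.40. Most members therefore differed little between the types on that total, with 35 of 66 above and 31 below the mesenchyme-like level. The member that was higher was ATP5IF1, the inhibitor that keeps ATP synthase from hydrolyzing ATP and that is also known for a role in heme synthesis. It had 686 CPM (680 to 692) in erythroid-like cells and 452 CPM (446 to 458) in mesenchyme-like cells, a log2 ratio of 0.60 over all UMIs and 1.48 without the abundant features, and was the only one of the 65 members above the mesenchyme-like level over all UMIs. The members that were lower were NDUFA4L2 and COX6B2, a testis isoform with 0.135 CPM in erythroid-like and 0.872 CPM in mesenchyme-like cells.

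**Figure D2:**
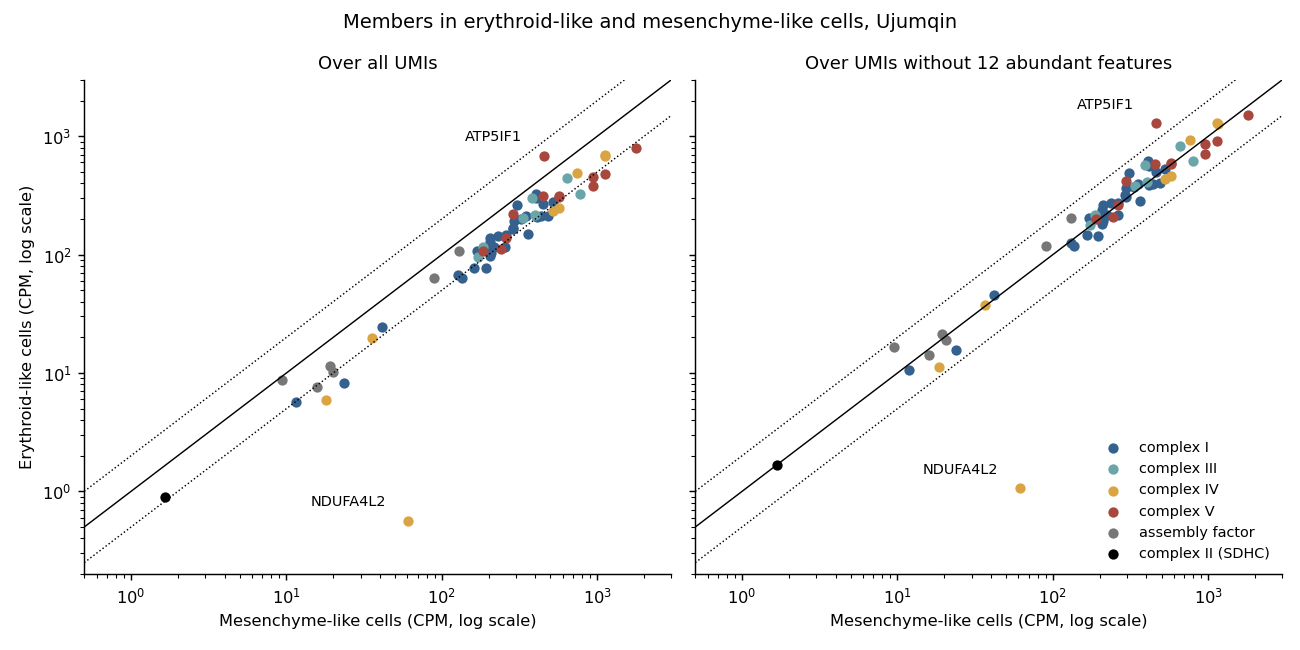
Level of each member with at least 1 CPM in Ujumqin mesenchyme-like cells (x axis, CPM, log scale) against its level in erythroid-like cells (y axis, CPM, log scale), over all UMIs (left) and without the 12 abundant features (right). The solid line marks equal levels and the dotted lines 2-fold. NDUFA4L2 lies far below the lines in both panels (0.566 against 60.6 CPM over all UMIs), and ATP5IF1 lies above the solid line in both.

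Genes of glycolysis and of the hypoxia response were less even in erythroid-like cells. Without the abundant features, 11 of 17 compared genes of glycolysis were at least 2-fold lower than in mesenchyme-like cells and 1 was higher. Of all features compared, 32.7% were lower and 10.3% higher. The median log2 ratio was -1.44 for the glycolysis genes and -0.40 for all features. GAPDH had 788 CPM over all UMIs in erythroid-like and 3951 CPM in mesenchyme-like cells, and the pyruvate kinase PKM 16.0 and 454 CPM, log2 ratios of -2.33 and -4.83 over all UMIs and of -1.44 and -3.95 without the abundant features. The gene that was higher was the glucose transporter SLC2A1, with 25.9 against 10.1 CPM. Of the hypoxia response genes, 6 of 7 were lower, among them the mitophagy receptor BNIP3 with 55.0 against 264 CPM. Of the other lists, 1 of 15 genes of the citrate cycle, 1 of 7 regulators of mitochondrial genes, and 1 of 24 assembly and expression factors of the chain were lower. The 2 of 8 electron carriers and nucleotide exchangers that were lower lay near the share of all features. An assembly factor for ATP synthase, ATPAF2, was higher (7.94 against 6.97 CPM over all UMIs). Over all UMIs, 16 of the 17 glycolysis genes and 7 of the 7 hypoxia response genes were lower (60.8% of all features).

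Extraembryonic endoderm-like cells showed a related pattern at a lower median depth, in sums to which the deep cells contribute most. Over all UMIs, 7 of 64 members were at least 2-fold lower than in mesenchyme-like cells and 0 were higher (58.3% of all features were lower, 3.9% higher and 62.2% either), and without the abundant features 4 were lower and 0 higher (35.7% lower and 5.36% higher). The median log2 ratio was -0.64 for the members and -1.17 for all features over all UMIs, and -0.18 and -0.70 without the abundant features. NDUFB10, a complex I subunit, was the member that stood highest relative to mesenchyme-like cells, at a log2 ratio of 0.36 over all UMIs. Of 14 glycolysis genes, 9 were lower on the total without abundant features.

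In Hulunbuir, the members were slightly lower in neural-like cells than in mesenchyme-like cells. Of 61 members, 0 were at least 2-fold higher and 1, NDUFA4L2, was lower (14.6% of all features differed in either direction), but 55 of the 61 were below the mesenchyme-like level, and the median log2 ratio was -0.40 for the members against -0.23 for all features. Most members were thus lower by less than 2-fold. The summed level was lower by -0.29 on the log2 scale (-0.31 to -0.27). Citrate cycle genes in these cells had a median log2 ratio of -0.84, with 2 of 11 at least 2-fold lower, IDH3A (7.76 against 23.7 CPM) and PDHB (12.9 against 26.7 CPM), and CYCS (the feature listed first of those with this symbol), the cytochrome c that carries electrons from complex III to complex IV, had 84.7 against 285 CPM.

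The other Hulunbuir types lay closer to mesenchyme-like cells. Among members with enough UMIs to compare (between 61 and 66 of the 73), none was at least 2-fold different in splanchnic mesoderm-like (2.34% of all features), presomitic mesoderm-like (12.3%), intermediate mesoderm-like (8.91%) or cardiomyocyte-like cells (8.16%), while 1 of 66, COX6B2, was higher in caudal progenitor-like cells (16.2%), NDUFA4L2 was lower in somite-like cells (1 of 61, 10.2%) and in endothelium-like cells (1 of 65, 16.6%). In Ujumqin, 2 of 64 were lower in endothelium-like cells (20.7%) and 0 of 57 differed in cardiomyocyte-like cells (14.7%). COX6A2, which stood apart in cardiomyocyte-like cells of both libraries, was under the UMI minimum of these comparisons and is described with the isoforms. Splanchnic mesoderm-like cells held the highest level of several members by a small margin. NDUFS6 had 492 CPM there against 396 CPM in mesenchyme-like and 221 CPM in neural-like cells. NDUFV3 had 257, 206 and 121 CPM in the same order, and NDUFV1, the flavoprotein subunit that accepts electrons from NADH, 259, 232 and 132 CPM. COX8A, the ubiquitous isoform of its subunit, had 792, 683 and 474 CPM. In each case neural-like cells were below splanchnic mesoderm-like cells by more than counting error. These members were named for a large ratio of the highest to the median type, so that gap follows in part from the choice.

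Some subunits have isoforms that are used in different tissues. Of 19 such symbols and partners looked for, 14 were among the features, and COX4I2, COX6A1, COX7A2, COX7B and COX8B were not. COX6A2, the heart and muscle isoform of a complex IV subunit, had 50.2 CPM (35.3 to 69.2, 37 UMIs) in Ujumqin cardiomyocyte-like cells and 21.4 CPM (14.5 to 30.3, 31 UMIs) in Hulunbuir cardiomyocyte-like cells. In the other 12 combinations it had at most 0.996 CPM, from at most 5 UMIs each, so the cardiomyocyte-like cells of both libraries stood apart from all others. COX6A2 was not among the genes of the gate. Its level moved with the gate and the average, from 20.8 CPM in Ujumqin and 9.96 CPM in Hulunbuir with 1 marker fewer to 191 and 113 CPM as the mean of the cells' own CPM, with Ujumqin above Hulunbuir at both ends.

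COX7A1, another muscle isoform of complex IV, was also highest in cardiomyocyte-like cells of both libraries, with 33.9 CPM (21.9 to 50.1) in Ujumqin and 43.4 CPM (33.4 to 55.6) in Hulunbuir, but was present elsewhere. It had 38.6 CPM (31.0 to 47.6) in presomitic mesoderm-like and 35.6 CPM (26.8 to 46.3) in neural-like cells, values whose intervals overlapped with that of Hulunbuir cardiomyocyte-like cells, and 24.5 CPM in caudal progenitor-like, 17.3 CPM in endothelium-like and 12.9 CPM in splanchnic mesoderm-like cells. In Ujumqin, it had 18.0 CPM in mesenchyme-like, 13.0 CPM in endothelium-like, 6.06 CPM in extraembryonic endoderm-like and 5.95 CPM in erythroid-like cells. The isoforms of spermatogenic cells were low everywhere, with COX6B2 at most 5.52 CPM and COX7B2 at most 2.17 CPM, whereas the common COX6B1 lay between 232 and 535 CPM.

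NDUFA4L2, a paralog of NDUFA4 that is known as a target of the hypoxia-inducible factor, was highest in mesenchyme-like cells of both libraries. They had 60.6 CPM (58.4 to 62.9) in Ujumqin and 89.3 CPM (85.4 to 93.4) in Hulunbuir. In Ujumqin, cardiomyocyte-like cells had 36.6 CPM, endothelium-like cells 13.9 CPM, extraembryonic endoderm-like cells 2.82 CPM and erythroid-like cells 0.566 CPM. In Hulunbuir, caudal progenitor-like cells had 77.1 CPM, splanchnic mesoderm-like cells 77.0 CPM, cardiomyocyte-like cells 76.5 CPM, presomitic mesoderm-like cells 74.6 CPM, intermediate mesoderm-like cells 67.8 CPM, endothelium-like cells 38.6 CPM, neural-like cells 33.6 CPM and somite-like cells 30.9 CPM. The interval of Hulunbuir mesenchyme-like cells overlapped with those of smaller types such as cardiomyocyte-like and presomitic mesoderm-like cells. Endothelium-like cells were thus below mesenchyme-like cells in each library, by -2.12 on the log2 scale in Ujumqin (-1.51 as the mean of the cells' own CPM) and -1.21 in Hulunbuir. Its paralog NDUFA4 did not follow this order and had 1242 CPM in Ujumqin endothelium-like and 1127 CPM in mesenchyme-like cells.

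The 3 genes of the c subunit of ATP synthase, ATP5MC1, ATP5MC2 and ATP5MC3, encode the same mature protein, and their counts differed. ATP5MC1 had almost no counts, with at most 0.996 CPM, though how completely its 3′ end is annotated was not tested. ATP5MC2 had 1686 CPM (1662 to 1711) in caudal progenitor-like cells, 1672 CPM (1608 to 1738) in neural-like cells and 1600 CPM (1510 to 1694) in Ujumqin cardiomyocyte-like cells, whose intervals overlapped. Ujumqin cardiomyocyte-like cells were highest without the abundant features, with 1781 CPM against 1689 CPM in caudal progenitor-like cells. Over all UMIs, ATP5MC2 was lowest in erythroid-like cells, with 484 CPM. Among Hulunbuir types it was 0.58 above the mesenchyme-like level on the log2 scale in caudal progenitor-like and 0.57 in neural-like cells, although most members were below it there. ATP5MC3 had 1361 CPM in caudal progenitor-like and 1193 CPM in neural-like cells, against 1568 CPM in mesenchyme-like cells, so mesenchyme-like cells were lowest of these 3 types for ATP5MC2 and highest for ATP5MC3.

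**Figure D3:**
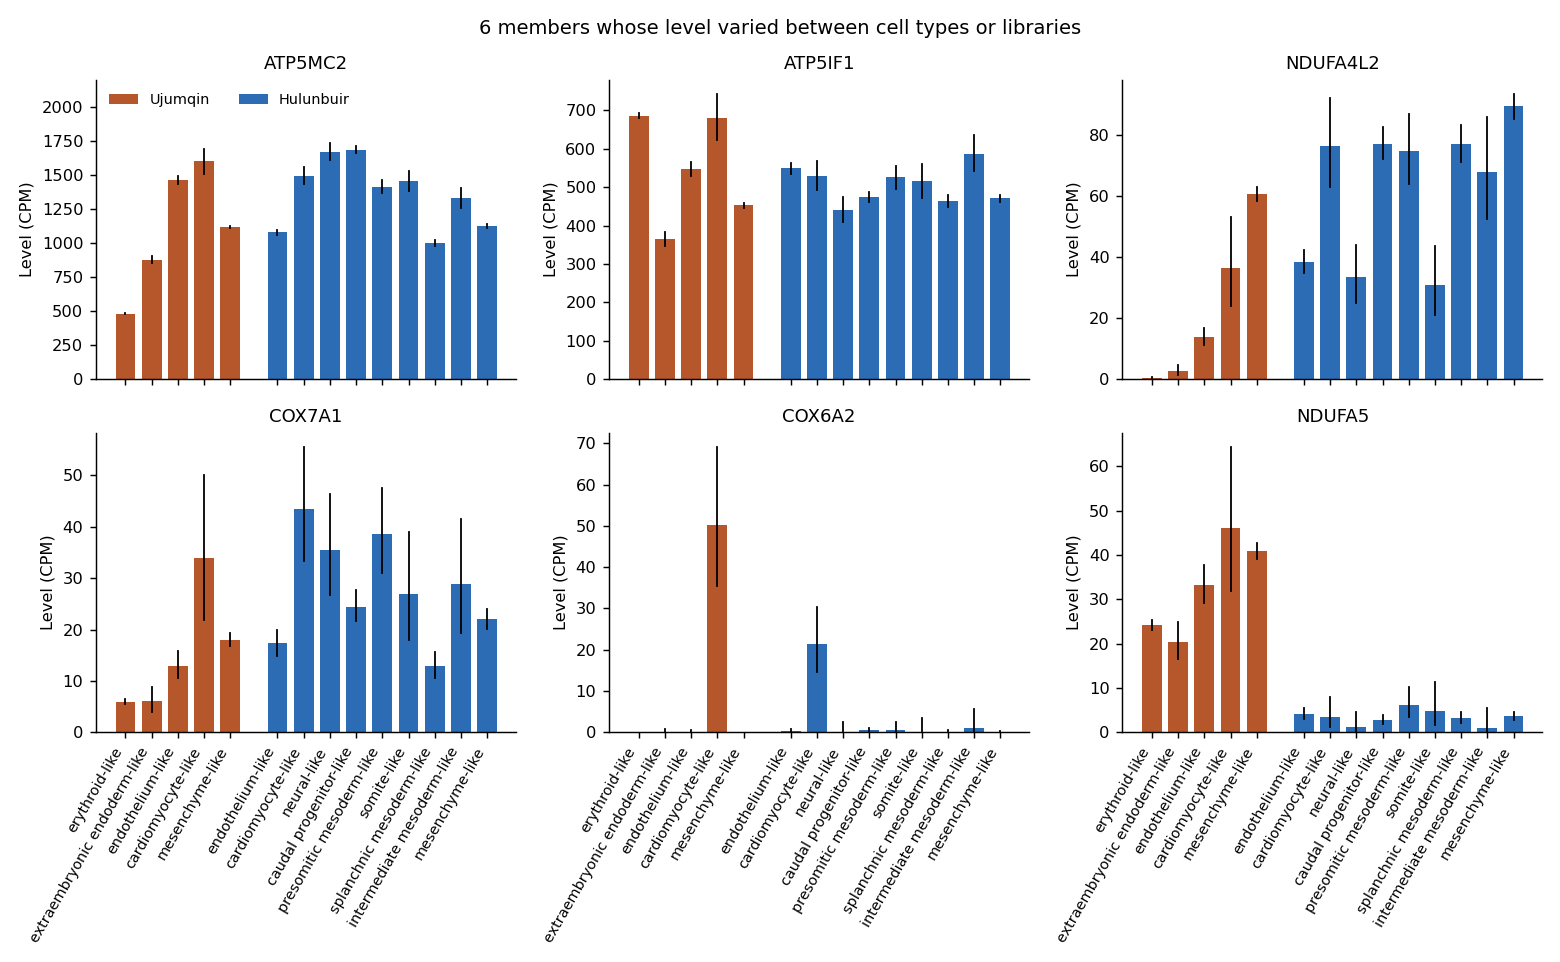
Level in CPM of ATP5MC2, ATP5IF1, NDUFA4L2, COX7A1, COX6A2 and NDUFA5 in the 14 combinations of library and cell type, Ujumqin in orange and Hulunbuir in blue, with black lines for the 95% counting intervals. COX6A2 is seen in cardiomyocyte-like cells of both libraries (50.2 and 21.4 CPM), and NDUFA5 is at or above 20.4 CPM in each Ujumqin type and at or below 6.14 CPM in each Hulunbuir type.

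The genes encoded in mitochondrial DNA were read beside the nuclear members of the same complex. The 11 MT- genes together had 1.15 UMIs per nuclear UMI in Ujumqin cardiomyocyte-like cells, 1.52 in erythroid-like, 1.62 in mesenchyme-like, 1.70 in endothelium-like and 2.01 in extraembryonic endoderm-like cells. In Hulunbuir the ratio ran from 1.45 in presomitic mesoderm-like cells through 1.70 in mesenchyme-like cells to 2.21 in endothelium-like cells. Endothelium-like cells were above mesenchyme-like cells in each library, though only slightly in Ujumqin. By complex, MT-CYTB gave between 2.22 and 3.998 UMIs per nuclear UMI of complex III, while MT-ATP6 gave between 0.397 and 0.756 per nuclear UMI of complex V, and these 2 ranges did not overlap. MT-CYTB was set against 7 nuclear features and MT-ATP6 against 16, and subunits without a symbol were not counted. The order of the complexes therefore depends on which features are counted. Neural-like cells had 2.85 UMIs of MT-ND genes per nuclear UMI of complex I, more than the 2.25 of Hulunbuir mesenchyme-like cells. The MT-ND genes were nearly level, with 19496 CPM in neural-like and 19594 CPM in mesenchyme-like cells, while nuclear complex I had 6849 and 8705 CPM. Over all complexes, the MT- sum was 35644 CPM against 39893 CPM, with log2 ratios of -0.16 for the MT- genes and -0.29 for the nuclear members.

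**Figure D4:**
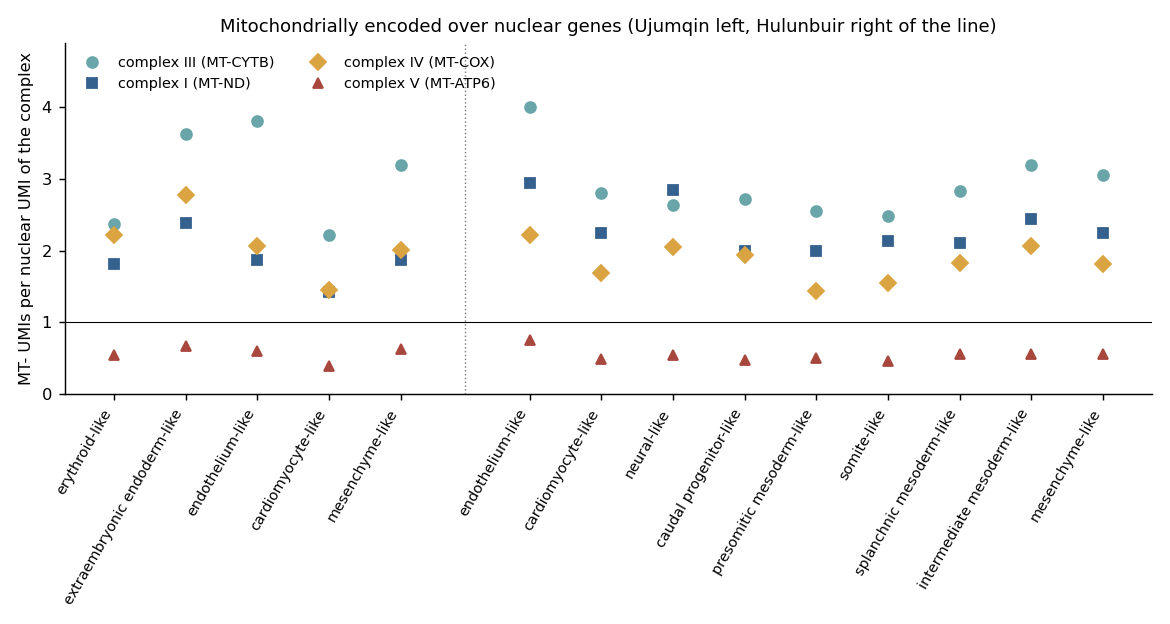
UMIs of the MT- genes of a complex per UMI of its nuclear members (y axis) in the 14 combinations of library and cell type (x axis), with Ujumqin left and Hulunbuir right of the dotted line. Complex III is highest in each combination except neural-like cells (2.64 against 2.85 for complex I), and complex V stays below 1 in each. The order of the complexes depends on which nuclear features carry a symbol.

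The libraries were compared within the 3 shared types to ask where the breeds differed, with 1 library each and pooled embryos, so that breed and library cannot be told apart. The summed nuclear level was nearly equal. It was 23429 CPM in Hulunbuir and 23265 CPM in Ujumqin mesenchyme-like cells, a log2 ratio of 0.01 (0.0053 to 0.015), 23798 and 22337 CPM in endothelium-like cells, 0.09 (0.08 to 0.10), and 22907 and 22680 CPM in cardiomyocyte-like cells, 0.01 (-0.01 to 0.04). The median log2 ratio of the members was 0.06 in mesenchyme-like, 0.17 in endothelium-like and 0.07 in cardiomyocyte-like cells, each below the median of all features compared, which was 0.30, 0.41 and 0.30.

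At least 2-fold differences of single members were few. In mesenchyme-like cells, 1 of 67 members was higher in Hulunbuir and 1 lower (19.5% of all features differed in either direction), in endothelium-like cells 4 of 64 were higher and 1 lower (24.3%), and in cardiomyocyte-like cells 2 of 63 were higher and 2 lower (15.9%). NDUFA4L2 was higher in Hulunbuir in endothelium-like cells, with 38.6 against 13.9 CPM, a log2 ratio of 1.47 (1.15 to 1.80), and in cardiomyocyte-like cells, with 76.5 against 36.6 CPM, 1.06 (0.45 to 1.73). In endothelium-like cells the others were NDUFS1, the largest iron-sulfur subunit of complex I (32.4 against 15.9 CPM), NDUFAF7 (18.0 against 8.01 CPM) and NDUFAF1 (9.98 against 4.28 CPM). NDUFAF7 was also the other member higher in cardiomyocyte-like cells, at a log2 ratio of 1.14. Without the abundant features, 3 members were higher in endothelium-like cells, NDUFS1 no longer among them, 0 were higher in cardiomyocyte-like cells, and the members' median in cardiomyocyte-like cells turned to -0.08. The share of all features is not given here on that total. COX6A2 was lower in Hulunbuir cardiomyocyte-like cells, by -1.23 on the log2 scale (-1.97 to -0.50), a difference that was under 2-fold as the mean of the cells' own CPM (113 against 191 CPM), and COX7B2 was higher in mesenchyme-like cells at 1.54 against 0.523 CPM. Over all UMIs, 1 of 7 hypoxia response genes, VEGFA, was at least 2-fold higher in Hulunbuir mesenchyme-like cells (19.5% of all features in either direction). In cardiomyocyte-like cells 1 of 4, VEGFA again, was higher (15.9%), and in endothelium-like cells 3 of 7, VEGFA among them (24.3%). The counts in mesenchyme-like and cardiomyocyte-like cells were thus a single gene each. The summed level of the list in mesenchyme-like cells was 336 CPM in Hulunbuir and 356 CPM in Ujumqin. In the other shared types it was higher in Hulunbuir, with 278 against 170 CPM in endothelium-like and 283 against 153 CPM in cardiomyocyte-like cells. On the same total and against the same shares, 8 of 17 glycolysis genes were at least 2-fold higher in endothelium-like cells. In mesenchyme-like cells 0 of 17 were higher, and in cardiomyocyte-like cells 2 of 12.

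A single member, NDUFA5, was at least 2-fold different in every shared type, of 62 members that could be compared in all 3 (4.37% of the 3887 features so compared were called in either direction, and 0.9% in the lower direction). NDUFA5 is an accessory subunit of the matrix arm of complex I. Mesenchyme-like cells had 40.9 CPM (39.1 to 42.8) in Ujumqin and 3.63 CPM (2.87 to 4.53) in Hulunbuir, endothelium-like cells 33.3 and 4.07 CPM, and cardiomyocyte-like cells 46.1 and 3.45 CPM. The log2 ratios of Hulunbuir over Ujumqin were -3.50 (-3.84 to -3.17), -3.03 (-3.53 to -2.56) and -3.74 (-5.45 to -2.38). Among the types found in 1 library, NDUFA5 had 24.3 CPM in erythroid-like and 20.4 CPM in extraembryonic endoderm-like cells of Ujumqin and between 0.996 and 6.14 CPM in the Hulunbuir types. The cells outside all gates had 32.3 CPM in Ujumqin and 3.81 CPM in Hulunbuir, so the libraries did not overlap in any group of cells described. The value in Ujumqin cardiomyocyte-like cells rested on 34 UMIs.

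**Figure D5:**
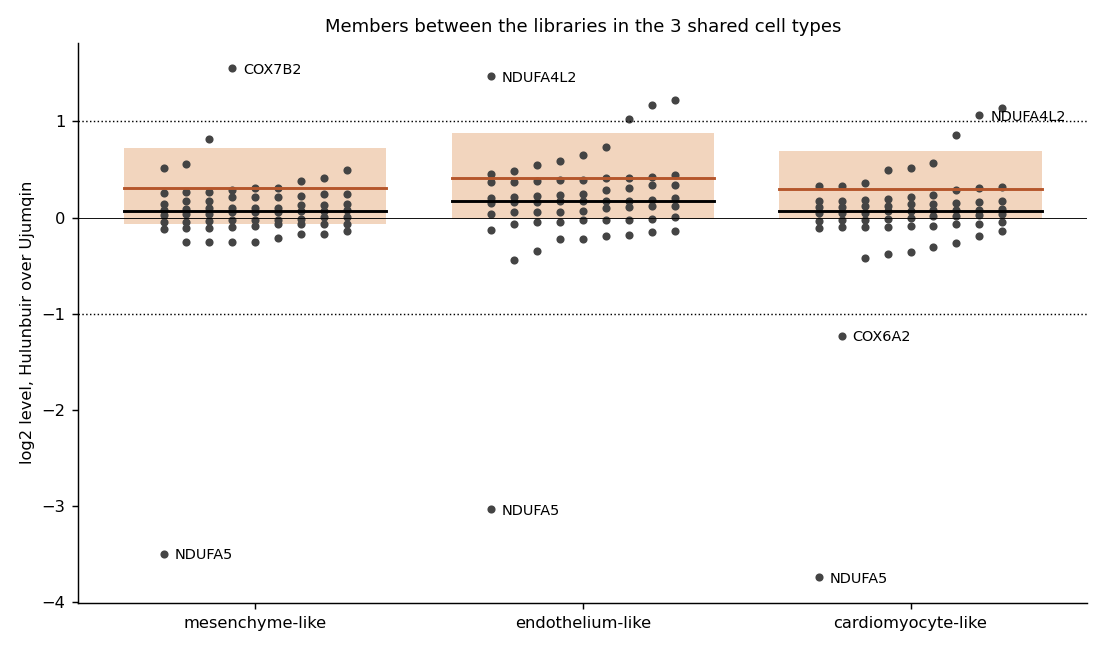
log2 ratio of the level in Hulunbuir over Ujumqin for each member (dots) in the 3 shared cell types, with the median of the members (black line), the median of all features compared (orange line) and the range between the quartiles of all features (orange band). Dotted lines mark 2-fold, and NDUFA5 lies at -3.50, -3.03 and -3.74.

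The MT- genes differed more between the libraries than the nuclear members. Their sum was 39893 CPM in Hulunbuir and 37769 CPM in Ujumqin mesenchyme-like cells, 52556 and 37898 CPM in endothelium-like cells, and 36760 and 26122 CPM in cardiomyocyte-like cells, log2 ratios of 0.08, 0.47 and 0.49. MT-ND5, a proton-pumping subunit of complex I, was at least 2-fold higher in Hulunbuir in every shared type, with 1312 against 411 CPM in mesenchyme-like, 1349 against 384 CPM in endothelium-like and 1349 against 365 CPM in cardiomyocyte-like cells. MT-COX1, the catalytic subunit of complex IV, was lower in Hulunbuir in mesenchyme-like cells, with 1456 against 2283 CPM, and in endothelium-like cells, with 2087 against 2602 CPM. Its level in cardiomyocyte-like cells is not given here. The MT-COX genes together were lower in Hulunbuir in mesenchyme-like cells, with 7666 against 8425 CPM. They were higher in endothelium-like cells, with 10339 against 9111 CPM, and in cardiomyocyte-like cells, with 7002 against 5835 CPM. The MT- genes therefore did not differ in 1 direction. The limit of 10% on MT- UMIs bears on these sums. Without it, the log2 ratio was 0.14 in mesenchyme-like, 0.58 in endothelium-like and 0.29 in cardiomyocyte-like cells, so it was larger in 2 types and smaller in cardiomyocyte-like cells.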

How the data were processed

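The authors deposited UMI counts per gene and barcode, not normalized, made with Cell Ranger (5.0.0 in the file header, 3.1.0 in the submitters' notes) on the rambouillet_v1.0 sheep assembly, with red cells lysed before capture. All else was computed here with scipy 1.17.1 and numpy 2.4.6 under Python 3.11.15, pandas 2.3.3, and Scrublet from scanpy 1.11.5, and drawn with matplotlib 3.10.9. The members, the 14 marker lists, the 6 pathway lists and the tests were chosen with earlier results of these data known, and the scoring rule of the gate after its markers were seen.

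A marker was on in a cell with at least 1 UMI and at least 2 times the higher of the libraries' mean shares. The list with most markers on, at least 3, gave the type, and ties were left out. Levels are ratios of summed UMIs, with exact Poisson intervals, and ratios have exact conditional binomial intervals. Library comparisons needed at least 20 UMIs in 1 library, and type comparisons at least 20 expected UMIs in each group at the pooled level. A group at 0 was set to 3 counts.

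Members were named by rule: the 2 with most UMIs of each complex, SDHA to SDHD, listed isoforms, those at least 2-fold different in every shared type, and the 5 with the largest ratio of the highest to the median type in each library. Others named were chosen after their values were seen. Doublets were kept in the main values. Scrublet's own threshold marked 190 Ujumqin and 7 Hulunbuir cells, too few to rely on in Hulunbuir, so an alternative removed the highest scores (1989 and 831 cells). Gates were run on cells simulated from the profiles of the gated cells, and folds on simulated Poisson counts without variation between libraries. These runs check the code and cannot test the types or the differences between the libraries. Types under 50 cells were not compared.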

Additional observations from a re-analysis of the deposited data

How the results depend on the processing

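Values here are log2 ratios of summed levels, and for the libraries the middle value of the 3 shared types. The total without the 12 abundant features and the gate with 1 marker fewer were chosen after seeing the data. The total without MT- and ribosomal protein genes also left out haemoglobin genes by symbol, but these were 3 features with at most 0.0144% of the UMIs of a type, and the 4 abundant features without a symbol stayed in it. The nuclear sum of Hulunbuir over Ujumqin, 0.01, became 0.074 on a total without MT- and ribosomal protein genes and 0.071 with cells of at least 5000 UMIs, -0.020 with 1 marker more, -0.016 without the abundant features and 0.058 with 1 marker fewer, so its sign was not stable. The MT- sum, 0.47, kept its sign and was 0.29 with no limit on MT- UMIs, 0.46 and 0.49 on totals without MT- and ribosomal protein genes or without MT- genes alone, 0.21 as the mean of cells, 0.50 with 1 marker more, 0.45 with cells of at least 5000 UMIs, 0.45 with the highest Scrublet scores removed, 0.34 without the abundant features and 0.29 with 1 marker fewer. The middle type was not the same in each setting, and the types did not move together. Cardiomyocyte-like cells, at 0.49, ranged from 0.29 with 1 marker fewer to 1.08 with 1 marker more, endothelium-like cells, at 0.47, from 0.21 as the mean of cells to 0.58 with no limit on MT- UMIs, and mesenchyme-like cells, at 0.08, from 0.05 to 0.14. Erythroid-like over mesenchyme-like cells, -0.81, was -1.01 without MT- and ribosomal protein genes, -0.84 without MT- genes, -0.84 with Scrublet scores removed and 0.073, of the other sign, without the abundant features. Neural-like over mesenchyme-like cells, -0.29, kept its sign, at -0.22 without MT- and ribosomal protein genes, -0.27 as the mean of cells, -0.31 with 1 marker more and -0.26 with 1 marker fewer.

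The count of members different in every shared type, 1, became 0 with 1 marker more and 0 with a minimum of 50 UMIs, because NDUFA5 then had 18 and 34 UMIs in Ujumqin cardiomyocyte-like cells, under the minimum. NDUFA5 was the member counted in each other setting run. Of 210 values of single members and others, 195 stayed within 1.5 times and 15 moved further. None of these that was at least 2-fold changed sign, while 7 changed sign, each a nuclear sum of Hulunbuir over Ujumqin in cardiomyocyte-like (-0.18 to -0.024, from 0.014) or mesenchyme-like cells (-0.020 to -0.0099, from 0.010). No paired analysis was possible because each breed has 1 library, and no replicate could be left out. The small number of UMIs in cardiomyocyte-like cells limits COX6A2 and NDUFA5 there.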
